A study of Mus musculus with 19 samples.

Results

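To describe how hepatocyte delivery of miR-34b/c changed the transcriptome of the fibrotic liver, 7 libraries from mice given TAA and AAV-miR-34b/c were compared with 7 libraries from mice given TAA and AAV-GFP. These are 14 of the 19 libraries of the study, chosen by their labels. All genes that passed a filter on low counts were compared, 9252 of the 31053 genes counted. Male C57BL/6 mice, 6 to 8 weeks old, were given thioacetamide (TAA), a hepatotoxin, for 12 weeks at rising doses to cause advanced fibrosis. The vectors were given when 10 weeks of this course had gone by, and the livers were collected 4 weeks later. AAV-miR-34b/c is a mix of the AAV8 vectors TBG miR-34b and TBG miR-34c, and AAV-GFP, the control vector, is AAV8 TBG eGFP. TBG is a promoter active in hepatocytes, so the vectors were meant to express their cargo in these cells, whereas the RNA came from whole liver. The 5 libraries of vehicle (PBS) mice without TAA are given as a background level and entered no test. The labels call the libraries of a group biological replicates, and which of the study's mice they came from is not stated in the sources used here, so p-values measure the spread between these libraries.

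The miR-34 family comprises miR-34a, miR-34b and miR-34c, small RNAs that are induced by p53 and repress messenger RNAs that match their seed, the bases near the 5′ end. Hepatocytes, the cells transduced here, secrete most plasma proteins, synthesise cholesterol and bile acids, release glucose and detoxify foreign compounds. In the acute phase response, hepatocytes exposed to interleukin-6 and interleukin-1 raise their secretion of serum amyloid A, fibrinogen, haptoglobin and other plasma proteins through STAT3, NF-κB and C/EBP transcription factors. NRF2 raises the enzymes of glutathione metabolism in cells exposed to reactive metabolites such as those of TAA. Fibrosis itself is laid down by hepatic stellate cells (HSC), which are not hepatocytes. In RNA from whole liver, fewer cells of a type and less RNA per cell cannot be told apart.

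The mature sequences show what the vector RNA and its endogenous relative have in common. They are from RefSeq on GRCm38.p6, written 5′ to 3′ with the seed, bases 2 to 8, in capitals.
mmu-miR-34b-5p: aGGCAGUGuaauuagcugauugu
mmu-miR-34a-5p: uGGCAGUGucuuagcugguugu
miR-34b-5p (23 bases, chr9:51103610-51103632, minus strand) and miR-34a-5p (22 bases, chr4:150068473-150068494, plus strand) have the same seed, GGCAGUG. The other delivered RNA, miR-34c-5p, is named only. The levels of the miR-34 genes were not analysed here, so that no value in the libraries themselves checks the delivery.

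Total counts were similar between the groups, 2717503 to 5208405 (median 3040202) for AAV-miR-34b/c and 2463842 to 4383805 (median 3116304) for AAV-GFP. Libraries did not all stand equally far apart. In 4 pairs of libraries within these groups (AAV-GFP 1 and 2, and AAV-miR-34b/c 1 and 2, 3 and 4, and 5 and 7) the coefficient of variation beyond counting noise was below 0.2, whereas it was 0.216 to 0.490 in the other 38 pairs. They differed by more than counting noise, which repeat libraries of 1 mouse can also do, and the sources used here do not say whether the close libraries came from separate mice. Each library was counted as a sample, as labelled. With each close pair summed into 1 sample, 87 genes passed the test in place of 311, and 59 of the 148 named genes that passed did so again. The text names, for each group of genes, those that did or did not. The share of counts from mitochondrial genes was 3.71% to 5.50% in AAV-GFP 5, 6 and 7 and AAV-miR-34b/c 1 and 2, and 7.85% to 10.8% in the other 9 libraries. The long nuclear RNAs *Malat1*, *Neat1*, *Meg3* and *Kcnq1ot1* took 0.0132% to 0.0191% of the counts in the 5 libraries and 0.0315% to 0.223% in the 9. *Gm42418*, which overlaps ribosomal RNA, took 1.07% to 4.42% (median 2.08%) with AAV-miR-34b/c and 2.71% to 6.17% (median 3.37%) with AAV-GFP. The part of *Gm42418* in the results was not tested. Both groups held libraries of both classes. All 147 named calls that could be tested within both classes had the same direction in both, and the 10 whose log2 fold change differed by more than 3 times between the classes are given with both values. Not all calls were made again within a class. Of the 311 genes, 136 passed within the low class, and 246 of the 310 tested passed within the high class. Of the named calls, 60 were lost within the low and 20 within the high class. The AAV-miR-34b/c libraries of the low class, 1 and 2, are a close pair, so values within that class may rest on 1 mouse of this group. No difference between the classes was tested. *Dbp*, a gene of the circadian output, was at 81.6 to 88.4 CPM in AAV-GFP 7 and AAV-miR-34b/c 5 and 7, at most 36.1 CPM in the other 11 libraries, and 64.9 to 108 CPM in vehicle. Markers of hepatocytes were abundant in every library and none of the 12 passed the test, with summed levels of 61320 to 105948 CPM in AAV-miR-34b/c and 73828 to 87410 CPM in AAV-GFP.

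With AAV-miR-34b/c, 311 of the 9252 genes tested differed from AAV-GFP (3.36%), 180 of them higher (1.95%) and 131 lower (1.42%), in edgeR's quasi-likelihood test with Benjamini-Hochberg adjusted p below 0.05. The higher genes included plasma proteins of the acute phase, metallothioneins and enzymes of cholesterol synthesis. The lower genes included some glutathione enzymes, other enzymes of detoxification and lipid oxidation, immediate early genes and collagens. The levels are TMM-normalized read counts scaled to a common library size (CPM), and folds are log2 fold changes of AAV-miR-34b/c against AAV-GFP with their standard error (SE). Over all genes tested the median log2 fold change was -0.0075. Among the 311 genes the absolute log2 fold change was 0.48 to 6.85 with a median of 0.998, and it was above 1 for 93 higher and 61 lower genes. Levels of the 2 groups did not overlap for 129 of all genes tested (1.39%), 71 higher (0.767%) and 58 lower (0.627%), and 115 of these were among the 311 genes. Of the 311 genes, 310 code for proteins.

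**Figure D1:**
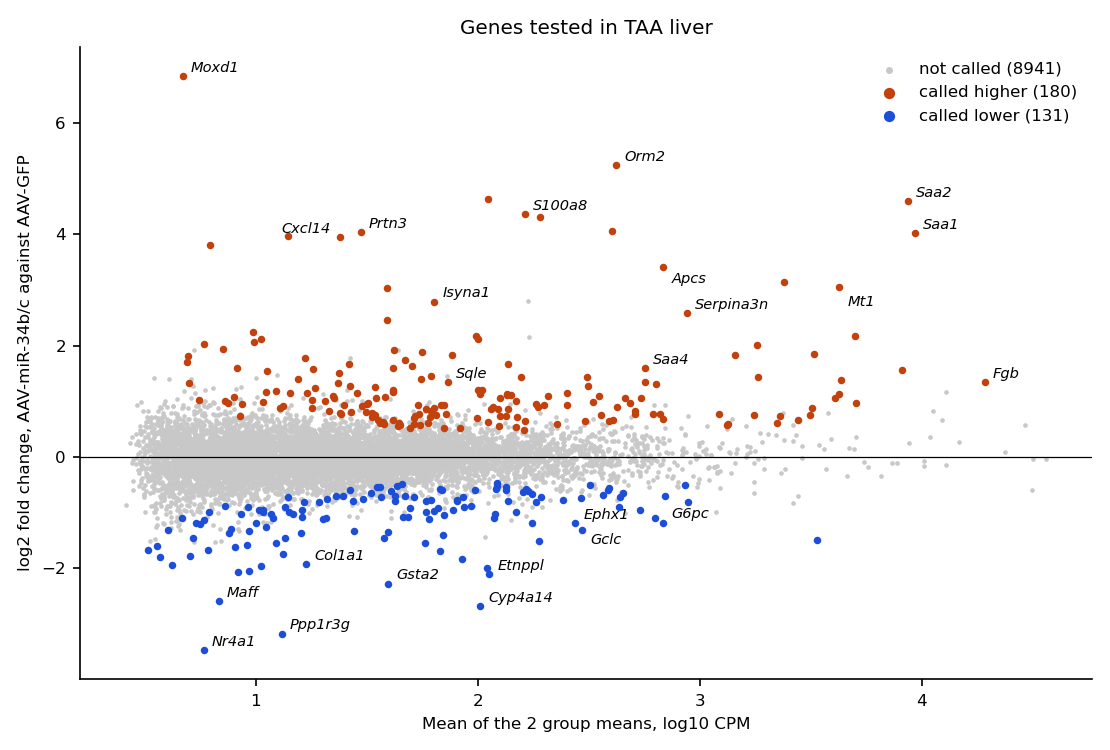
Each point is a gene tested, with the log10 of the mean of the 2 group means (CPM) on the x axis and the log2 fold change of AAV-miR-34b/c against AAV-GFP on the y axis. The 180 genes called higher (orange) include abundant plasma proteins at the right, and the 131 genes called lower (blue) reach smaller fold changes, with 8 below -2 against 27 of the higher genes above 2.

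Among the genes with the smallest p-values, *Moxd1* was nearly absent from the control group. *Moxd1*, a relative of dopamine beta-hydroxylase (chr10:24223517-24302790, plus strand on GRCm38), had 11 to 55 counts in each AAV-miR-34b/c library and at most 1 count in an AAV-GFP library. Its levels were 4.39 to 16.8 CPM (median 6.90) with AAV-miR-34b/c and 0 to 0.327 CPM with AAV-GFP, at least 10.1-fold higher when AAV-GFP is set to a floor of 3 counts per library (adjusted p = 5.81e-06). In vehicle it was higher than in both, 39.2 to 161 CPM (median 64.3).

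Serum amyloid A4, *Saa4* (chr7:46727998-46732603, minus strand), a lipoprotein component that in mice is expressed constitutively, was at 754 to 977 CPM (median 819.7) with AAV-miR-34b/c and 219.6 to 449 CPM (median 239) with AAV-GFP, without overlap (log2 fold change 1.60 ± 0.16 (SE), adjusted p = 1.90e-05). *Isyna1*, which makes inositol phosphate from glucose 6-phosphate, was at 37.9 to 152 CPM (median 127) against 9.26 to 25.1 CPM (median 14.9) (log2 fold change 2.79 ± 0.33 (SE), adjusted p = 7.66e-05). All AAV-miR-34b/c libraries lay above all AAV-GFP libraries, although AAV-miR-34b/c 5 and 7 were lower than the other 5. The chemokine *Cxcl14* (chr13:56288643-56296551, minus strand) was at 24.3 to 64.3 CPM (median 49.7) against 0.541 to 6.10 CPM (median 1.99) (log2 fold change 3.96 ± 0.38 (SE), adjusted p = 1.00e-05), and here too every AAV-miR-34b/c library was above every AAV-GFP library.

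The genes next in rank on the higher side had varied functions, and none overlapped between the groups. *Cpne8*, a calcium-dependent phospholipid-binding copine, was at 10.7 to 26.7 CPM (median 18.9) against 3.08 to 5.44 CPM (median 3.98) (log2 fold change 2.11 ± 0.25 (SE), adjusted p = 7.66e-05). The fatty acid binding protein *Fabp5* (1.63, adjusted p = 0.000193) and *Prg4*, the secreted glycoprotein lubricin (2.17, adjusted p = 0.000304), had log2 fold changes of similar size. For *Il17ra*, the receptor of interleukin-17A, the levels were 28.3 to 74.5 CPM (median 34.2) against 9.26 to 15.6 CPM (median 11.1) (log2 fold change 1.68 ± 0.23 (SE), adjusted p = 0.000366). *Dnajc12*, a co-chaperone of the aromatic amino acid hydroxylases, was at 26.5 to 117 CPM (median 69.8) against 5.05 to 20.6 CPM (median 11.1) (log2 fold change 2.45 ± 0.34 (SE), adjusted p = 0.000419).

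On the lower side, *Gsta2* had the smallest p of all genes. *Gsta2*, a glutathione S-transferase (chr9:78331018-78355788, minus strand), was at 9.29 to 16.95 CPM (median 14.4) with AAV-miR-34b/c, 45.7 to 83.5 CPM (median 63.8) with AAV-GFP and 10.6 to 15.7 CPM (median 13.3) in vehicle (log2 fold change -2.28 ± 0.17 (SE), adjusted p = 6.96e-07). The AAV-miR-34b/c libraries lay in the range of the vehicle libraries or close to it, and far below all AAV-GFP libraries. *Etnppl*, which breaks down phosphoethanolamine (chr3:130617448-130637521, plus strand), was at 24.9 to 71.9 CPM (median 39.9) against 143 to 225 CPM (median 185), without overlap (log2 fold change -2.11 ± 0.23 (SE), adjusted p = 2.97e-05). The fatty aldehyde dehydrogenase *Aldh3a2* was at 21.95 to 46.7 CPM (median 28.3) against 66.2 to 147 CPM (median 100.4) (log2 fold change -1.69 ± 0.21 (SE), adjusted p = 0.000128). Its groups did not overlap either, and vehicle, at 51.9 to 88.1 CPM (median 61.6), lay above AAV-miR-34b/c and overlapped AAV-GFP.

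Further lower genes of the leading ranks were *Ces2e*, a carboxylesterase (-0.99, adjusted p = 0.000382), *Naaladl2* (-1.67, adjusted p = 0.000724), the transcription factor *Sox4* (-1.58, adjusted p = 0.000776) and *Gsn*, the actin-severing protein gelsolin (-1.55, adjusted p = 0.000698). None of these 4 overlapped between the groups. All genes named here as leading, higher and lower, also passed with close pairs summed. Within the low mitochondrial class *Naaladl2*, *Sox4* and *Gsn* did not pass (adjusted p = 0.127, 0.0757 and 0.158).

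**Figure D2:**
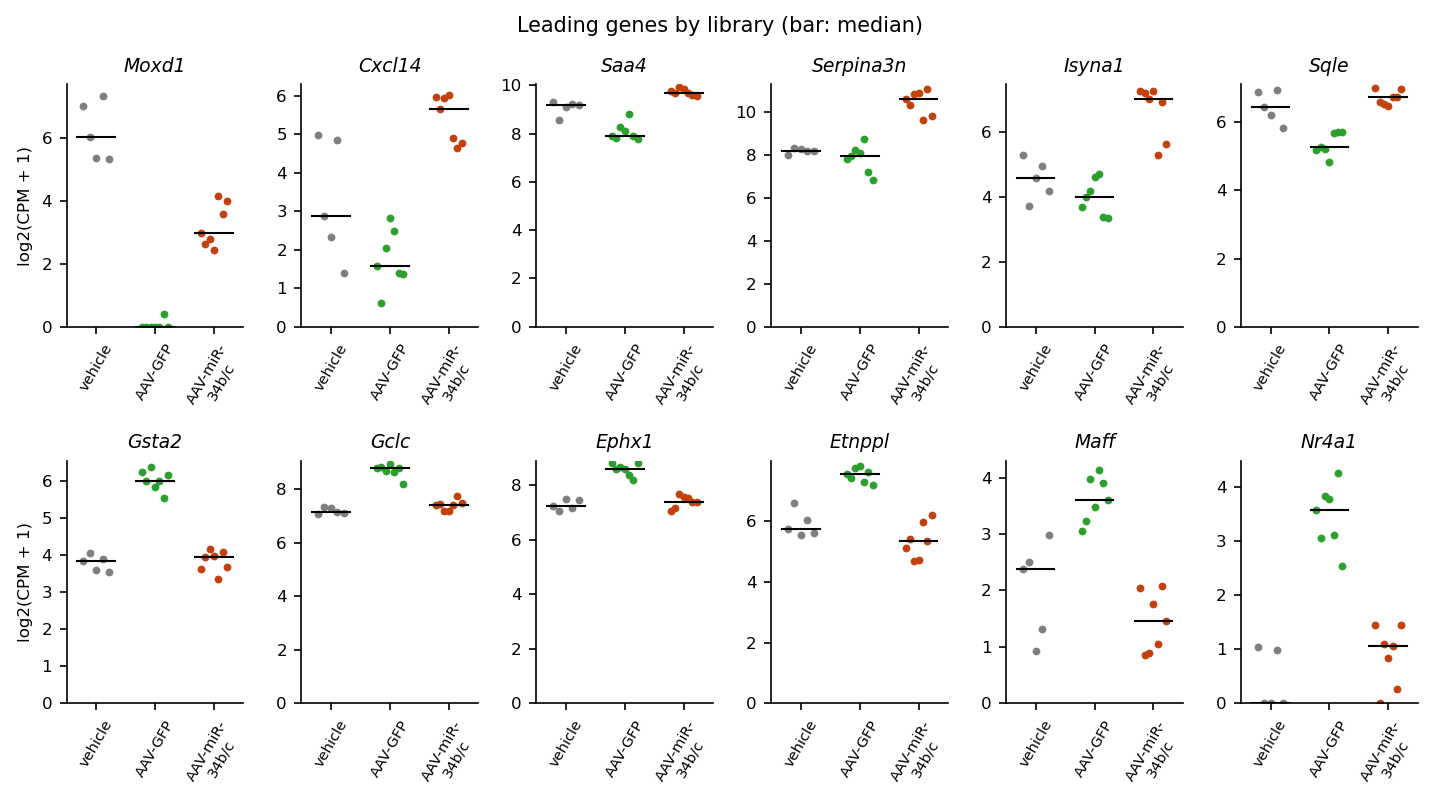
Levels of 12 leading genes as log2(CPM + 1) on the y axis, with a point for each library of vehicle, of AAV-GFP and of AAV-miR-34b/c and a bar at the median of the group. The AAV-miR-34b/c and AAV-GFP points do not overlap for any of the 12 genes, and for Gsta2, Gclc and Ephx1 the AAV-miR-34b/c points lie near those of vehicle.

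Acute phase proteins were the group with the most differing members. Of 29 tested, 24 were higher with AAV-miR-34b/c (82.8%, against 1.95% of all genes) and none was lower, with a median log2 fold change of 1.56. All lists were chosen with earlier results of these data known, so these shares describe the lists and no list was tested as a set. This list also holds genes that do not encode plasma proteins, and *Il1r1*, *Steap4* and *Ifitm3* of these are among the 24. The summed level of the list was 75670 to 228493 CPM (median 151924) with AAV-miR-34b/c, 39712 to 81561 CPM (median 45599) with AAV-GFP and 51374 to 100517 CPM in vehicle. Of the AAV-miR-34b/c libraries, 1 and 2 were the highest, while 5 and 7, at 75670 and 76210 CPM, were below AAV-GFP 5 and above the other AAV-GFP libraries.

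Of the members of the acute phase list, 7 did not overlap between the groups, among them *Saa4*, which is constitutive in mice. *Serpina3n*, an inhibitor of serine proteases (chr12:104406729-104414329, plus strand), was at 798 to 2171 CPM (median 1590.1) against 115 to 427 CPM (median 252) (log2 fold change 2.58 ± 0.29 (SE), adjusted p = 3.91e-05). *Itih3*, a heavy chain of inter-alpha-trypsin inhibitor, was at 1261 to 3249.8 CPM (median 2462) against 282 to 905 CPM (median 593) (log2 fold change 1.84 ± 0.25 (SE), adjusted p = 0.000365). *Lrg1*, a leucine-rich glycoprotein of plasma, was at 3723 to 7524 CPM (median 4520.3) against 684 to 2537 CPM (median 1200.4) (log2 fold change 1.85 ± 0.28 (SE), adjusted p = 0.000786). In all 3 genes the lowest AAV-miR-34b/c library exceeded the highest AAV-GFP library. The same held for the pentraxins *Crp* (1.09, adjusted p = 0.00107) and *Apcs* (3.42, adjusted p = 0.00158) and for *Serpina3m* (1.44, adjusted p = 0.00407). All but *Serpina3m* passed again with close pairs summed.

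Serum amyloid A1 and A2 and the orosomucoids had larger fold changes but were more variable between libraries. *Saa1* (chr7:46740497-46742980, minus strand) was at 3182 to 35222 CPM (median 17132) with AAV-miR-34b/c and 154 to 5163 CPM (median 257) with AAV-GFP (log2 fold change 4.03 ± 0.87 (SE), adjusted p = 0.0121). *Saa2* was at 2363 to 29496 CPM (median 18762) against 42.8 to 3635 CPM (median 88.8) (log2 fold change 4.61 ± 1.04 (SE), adjusted p = 0.016). For both genes 5 of 7 AAV-miR-34b/c libraries were above all AAV-GFP libraries, because AAV-GFP 5 was high and AAV-miR-34b/c 5 and 7 were low. Vehicle 1 and 4, at 10305 and 9620 CPM of *Saa1* and 5655 and 5326 CPM of *Saa2*, were above all AAV-GFP libraries and AAV-miR-34b/c 5 and 7. The other vehicle libraries were at 629 to 822 CPM of *Saa1* and 173 to 215 CPM of *Saa2*.

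For *Orm2*, an orosomucoid that binds lipophilic compounds in plasma, the levels were 55.5 to 1954 CPM (median 991) against 3.19 to 90.5 CPM (median 11.3) (log2 fold change 5.25 ± 0.88 (SE), adjusted p = 0.00196). *Orm1* (2.17, adjusted p = 0.005) and *Orm3* (4.65, adjusted p = 0.00178) were also higher. Reads of the 3 orosomucoid genes, of *Saa1* and *Saa2* and of the Serpina3 group can be shared between near-identical copies, so the split between the members is uncertain. The orosomucoids passed with close pairs summed, whereas *Saa1* and *Saa2* did not.

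Fibrinogen was higher in all of its 3 chains. *Fgb* was at 16435 to 34797 CPM (median 30663) against 7910.3 to 16457 CPM (median 9727) (log2 fold change 1.35 ± 0.21 (SE), adjusted p = 0.00114), and 6 of 7 AAV-miR-34b/c libraries were above all AAV-GFP libraries. The log2 fold change of *Fgg* was 1.38, adjusted p = 0.00431 and that of *Fga* 1.06, adjusted p = 0.0189, the latter lost without AAV-GFP 1 (adjusted p = 0.0512). Haptoglobin, *Hp*, which binds free haemoglobin, was at 5023 to 21121 CPM (median 11293) against 2483 to 8261 CPM (median 2954) (log2 fold change 1.56 ± 0.35 (SE), adjusted p = 0.0145). The inter-alpha-trypsin inhibitor chain *Itih4* (1.44, adjusted p = 0.005), the endotoxin-binding protein *Lbp* (1.43, adjusted p = 0.00532) and the metalloreductase *Steap4* (2.12, adjusted p = 0.00477) were higher as well. *Saa3*, made by macrophages as well as hepatocytes, and haemopexin, *Hpx*, did not pass the test (log2 fold change 2.80, adjusted p = 0.0638, and 1.17, adjusted p = 0.0786). Without libraries AAV-GFP 7 and AAV-miR-34b/c 5 and 7, those with high *Dbp*, 24 members were higher. They were not the same 24, since the call of *Ifitm3* was lost. Within the high mitochondrial class the count was 21 with a median of 1.27 and within the low class 25 with a median of 2.08. With close pairs summed 12 members were higher, *Fgb* and *Steap4* among them, and *Fgg*, *Fga*, *Hp*, *Itih4* and *Lbp* were lost.

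Receptors and regulators of the interleukin pathways moved in both directions. Of 30 tested genes of IL-6, IL-1 and STAT3 signalling, 3 were higher and 2 lower (16.7% called, against 3.36% of all genes), with a median of 0.31. The interleukin-1 receptor *Il1r1* (1.46, adjusted p = 0.00993), its antagonist *Il1rn* (1.60, adjusted p = 0.034) and the tumour necrosis factor receptor *Tnfrsf1a* (0.78, adjusted p = 0.00597) were higher, and *Il1r1* and *Il1rn* are also counted among the 24 acute phase calls. *Nfkbia*, which encodes the inhibitor IκBα and is itself induced by NF-κB, was lower, at 141 to 237 CPM (median 176) against 241 to 382 CPM (median 297) without overlap (log2 fold change -0.77 ± 0.15 (SE), adjusted p = 0.00653). *Il1rap*, the accessory chain of the interleukin-1 receptor, was lower too (-0.75, adjusted p = 0.0344). The calls of *Il1rn* and *Il1rap* were lost in 8 and 11 of the 14 fits that each left out a library, with adjusted p up to 0.0816 (without AAV-miR-34b/c 6) and 0.0841 (without AAV-miR-34b/c 3). Among chemokines and cytokines, 2 of 18 tested were higher and none lower (11.1% called, against 3.36% of all genes). Beside *Cxcl14*, *Ccl6* was higher (1.15, adjusted p = 0.0391), lost in 7 of the 14 fits, with adjusted p up to 0.0878 without AAV-GFP 1. Of 39 interferon-stimulated genes, *Ifitm3*, which blocks viral entry and is also among the 24 acute phase calls, was higher (0.57, adjusted p = 0.0389) and *Bst2*, which tethers virions, lower (-0.81, adjusted p = 0.0252). That is 5.13% of the list called, against 3.36% of all genes. The calls of *Ifitm3* and *Bst2* were lost in 11 and 6 of the fits, with adjusted p up to 0.0912 and 0.0673, both without AAV-miR-34b/c 4. Of the genes in this group only *Il1r1* and *Cxcl14* passed with close pairs summed. Without AAV-miR-34b/c 2 the number of interleukin genes higher was 5. Over the fits without a library 0 to 2 interferon-stimulated genes were higher and 0 or 1 lower.

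Promoters of the acute phase genes are shown because these members moved together and their regulators are known. Of the 24 genes called, 20 had a promoter in RefSeq on GRCm38.p6, taken from 250 bases before to 50 bases after the start. The letters TTCNNNGAA (a STAT motif), TTGCNNAAT (a C/EBP motif) and GGGNNTTTC (from an NF-κB motif) were searched on both strands, and matches that shared bases counted for each motif. At least 1 of the 3 was found in 12 of the 20 genes (60%) and in 16.2% of all 27025 genes with a promoter (13.7% of the genes tested). The STAT letters were in 6 of the 20 genes (30%) against 9.55% of all genes (8.02% of the genes tested). The C/EBP letters were in 6 (30%) against 2.77% (2.0%), and the NF-κB letters in 3 (15%) against 5.06% (4.7%). The list is of a response known to act through these factors, so higher shares could be foreseen. The part of these factors in the difference between the groups was not tested. The windows give examples 5′ to 3′ on the strand of the gene, with the matching letters in capitals.
Saa1 C/EBP window (chr7:46743144-46743172, minus strand): tgtgctcccaTTGCACAATgagggagaat
Saa4 C/EBP window (chr7:46732638-46732666, minus strand): accaggaaggATTGAGCAAgagggactct
Fgb STAT window (chr3:83050007-83050035, minus strand): gactcaatgaTTCGAGGAAccccctgtgt
Itih4 STAT window (chr14:30886415-30886443, plus strand): aaacctgcatTTCCGAGAActtgcaccag
Serpina3n NF-κB window (chr12:104406527-104406555, plus strand): aacagaggtgGGGCTTTTCccatcaggaa
In Saa4 the match is on the opposite strand. The capitals lie 182 to 174 bases before the start in Saa1, 53 to 45 in Saa4, 162 to 154 in Fgb, 51 to 43 in Itih4 and 171 to 163 in Serpina3n. Promoters were also searched for the cholesterol and glutathione genes called. The letters TCACNCCAC (from a sterol response element) were in 1 of 5 cholesterol genes against 1.53% of the genes tested, and TGACNNNGC (from an antioxidant response element) were in none of 6 glutathione genes against 17.3%. These checks are void, because only 5 of 11 and 6 of 8 called genes had a promoter, under 80%. A match describes the letters and not the binding of a factor.

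Neutrophil genes were also among the higher genes. Whether they followed the acute phase proteins library by library was not tested. Of 15 markers 5 passed the filter on low counts, which a gene can pass through the group where it is high. Of these, 4 were higher (80% called, against 3.36% of all genes). *S100a8*, a subunit of the calcium-binding protein calprotectin, was at 21.1 to 861 CPM (median 181) against 7.62 to 25.5 CPM (median 13.6) (log2 fold change 4.36 ± 0.75 (SE), adjusted p = 0.00243). AAV-miR-34b/c 1 and 2 were the highest at 828 and 861 CPM, while AAV-miR-34b/c 5 and 7, at 21.1 and 25.1 CPM, were within the range of AAV-GFP. AAV-miR-34b/c 6, the library with the highest *Serpina3n*, was at 63.1 CPM. Its partner *S100a9* (4.31, adjusted p = 0.00415), *Retnlg* (3.97, adjusted p = 0.00447) and lipocalin 2, *Lcn2*, which hepatocytes also make and which is counted among the acute phase calls too (4.06, adjusted p = 0.0106), were higher. The gelatinase *Mmp9* did not pass the test (1.93, adjusted p = 0.0672). The summed level of all 15 markers was 196 to 3455 CPM (median 1341) with AAV-miR-34b/c, 32.6 to 264 CPM (median 40.8) with AAV-GFP and 41.2 to 221 CPM in vehicle. No marker was at 0 in all libraries of a group, and 6 of the 15 had at most 3 counts in every AAV-GFP library. *Prtn3*, a serine protease of neutrophil granules that was in none of the lists, was at 21.04 to 98.9 CPM (median 57.9) against 0 to 12.1 CPM (median 1.62), without overlap (log2 fold change 4.05 ± 0.61 (SE), adjusted p = 0.000776). The part of neutrophils in the acute phase result was not tested. *S100a8*, *S100a9*, *Retnlg* and *Prtn3* passed with close pairs summed and *Lcn2* did not.

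**Figure D3:**
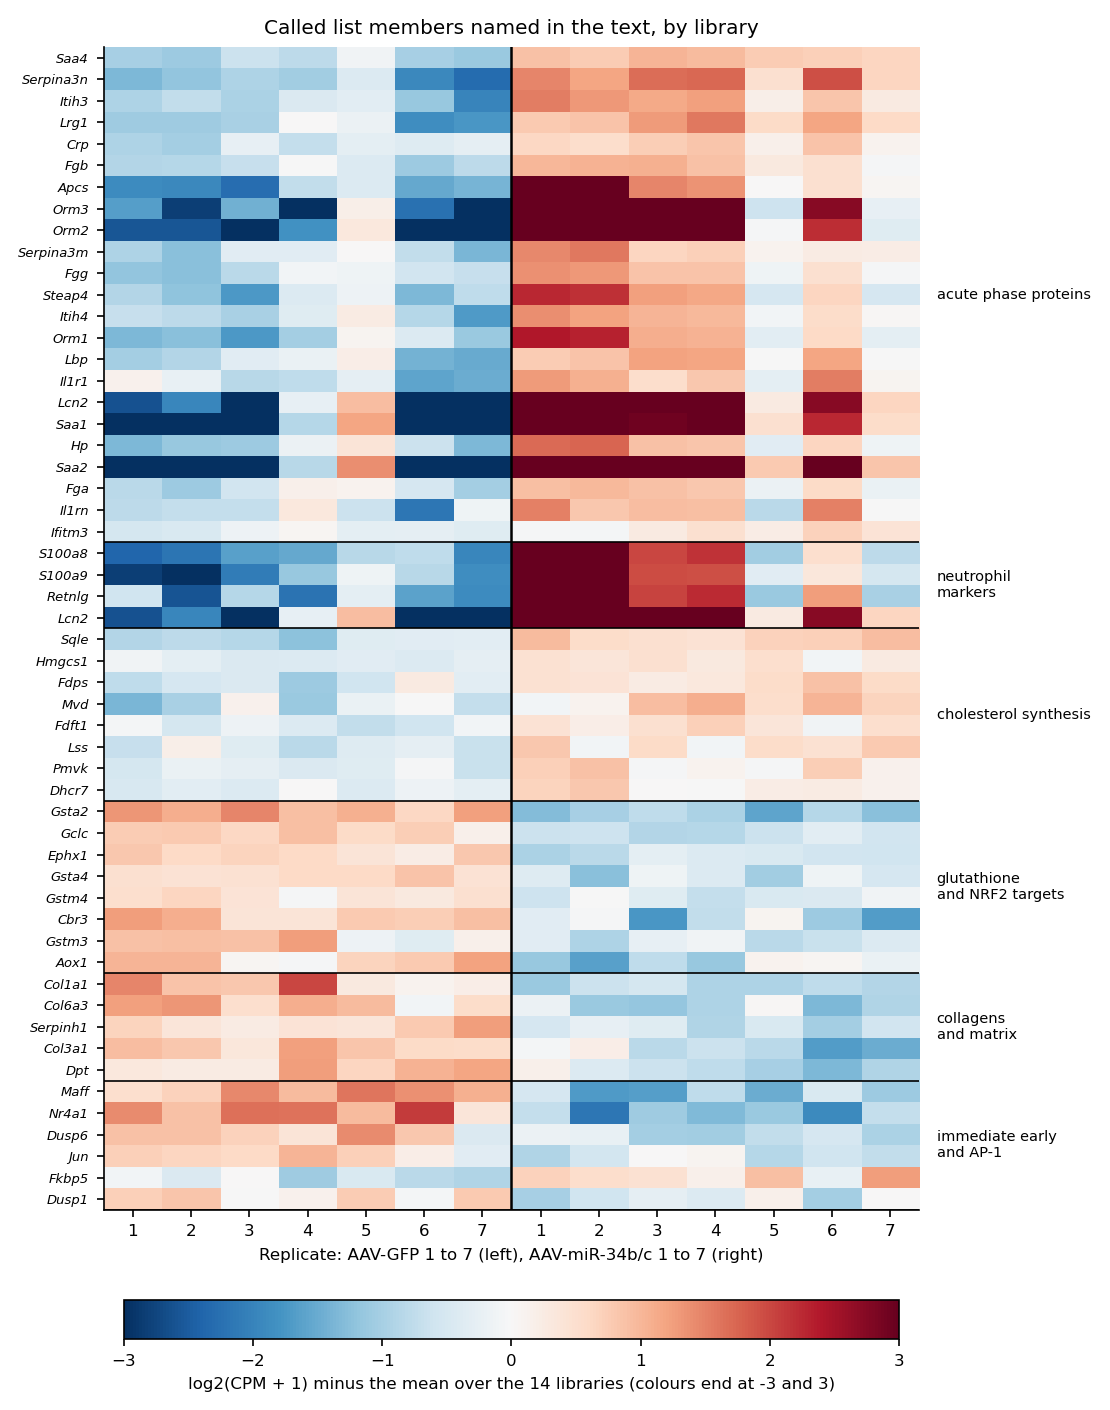
Called members of 6 gene lists that the text names, by library, coloured by log2(CPM + 1) minus the mean over the 14 libraries, with AAV-GFP replicates 1 to 7 at the left and AAV-miR-34b/c replicates 1 to 7 at the right. Most acute phase genes are higher in AAV-miR-34b/c 1 to 4 and 6 than in 5 and 7, with Ifitm3 an exception, and the neutrophil genes S100a8, S100a9 and Retnlg are highest in 1 and 2 and below the mean in 5 and 7.

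Complement and coagulation factors, which are also plasma proteins of the hepatocyte, were higher in part. Of 32 complement genes tested 4 were higher and none lower (12.5% called, against 3.36% of all genes), with a median of 0.27. *C3*, the central complement component, was at 4700.1 to 8713 CPM (median 6913) against 1666 to 4528 CPM (median 3698) (log2 fold change 0.97 ± 0.22 (SE), adjusted p = 0.015). The lytic component C5, *Hc* (0.68, adjusted p = 0.0106), *C8a* (0.77, adjusted p = 0.0158) and the initiating subunit *C1qb*, made by macrophages (0.94, adjusted p = 0.00858), were also higher. In *C3*, *Hc* and *C1qb* all AAV-miR-34b/c libraries were above all AAV-GFP libraries, and in *C8a* 5 of 7 were. None of these 4 calls was made with close pairs summed. With normalization by library size only, 2 complement genes were higher and 2 lower, with a median of 0.06. Within the high mitochondrial class 7 were higher and 1 lower, and within the low class 3 were higher and none lower.

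Of 32 genes of coagulation and fibrinolysis tested, 8 were higher and none lower (25% called, against 3.36% of all genes), with a median of 0.38. They comprise the 3 fibrinogen chains. *Serpina10*, the inhibitor of factor Xa that works with protein Z, was at 487 to 1391 CPM (median 942) against 281 to 485 CPM (median 372), without overlap (log2 fold change 1.31 ± 0.23 (SE), adjusted p = 0.00331). The count of 8 fell to 3 without AAV-GFP 1 and to 5 without AAV-GFP 2, AAV-GFP 3, AAV-miR-34b/c 1 or AAV-miR-34b/c 4, and to 2, with 1 gene lower, with close pairs summed. It was 5, with 1 lower, with normalization by library size only, and 8, with 1 lower, in each mitochondrial class. *Serpina10* passed with close pairs summed. Among the serpins of the Serpina1 and Serpina3 groups, 3 of 14 tested were higher (*Serpina3n*, *Serpina3m* and *Serpina10*) and none lower. That is 21.4% called, against 3.36% of all genes.

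The metallothioneins *Mt1* and *Mt2*, which bind zinc and copper and are induced by metals, glucocorticoids and interleukin-6, were higher without overlap. *Mt1* was at 4702 to 9362 CPM (median 8379) with AAV-miR-34b/c, 107 to 1822 CPM (median 822) with AAV-GFP and 950.2 to 2354 CPM (median 2212) in vehicle (log2 fold change 3.06 ± 0.44 (SE), adjusted p = 0.000499). *Mt2* was at 1439 to 7647 CPM (median 3664), 37.03 to 997 CPM (median 404) and 291 to 768 CPM (median 616) (log2 fold change 3.14 ± 0.56 (SE), adjusted p = 0.00337). The lowest AAV-miR-34b/c library was above the highest AAV-GFP and vehicle library in both genes. None of the other 9 genes tested on this list, which holds zinc transporters and the metal-responsive factor, passed the test. Both genes passed with close pairs summed.

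Iron and heme genes moved in both directions, 5 of 32 tested higher and 3 lower (25% called, against 3.36% of all genes), with a median of -0.03. The higher members included *Hp*, *Lcn2* and *Steap4*, which are counted among the acute phase calls as well. Without AAV-GFP 1, 3 or 6 or AAV-miR-34b/c 1, 2, 3 or 4 the number higher was 3. The lower members were targets of bone morphogenetic protein signalling, which controls hepcidin. *Id1* was at 3.19 to 17.9 CPM (median 6.22) against 12.5 to 32.2 CPM (median 17.9) (log2 fold change -1.46 ± 0.32 (SE), adjusted p = 0.0125), and 6 of 7 AAV-miR-34b/c libraries were below all AAV-GFP libraries. The inhibitory Smads *Smad7* (-1.19, adjusted p = 0.0106) and *Smad6* (-1.09, adjusted p = 0.0411) were lower as well, the latter lost in 10 of the 14 fits without a library with adjusted p up to 0.1 (without AAV-miR-34b/c 3). *Id1* had a log2 fold change of -1.95 within the high and -0.64 within the low mitochondrial class. With normalization by library size only 4 were higher and 6 lower, and of all these calls only that of *Steap4* held with close pairs summed.

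Cholesterol synthesis was higher at several of its steps. Of 26 genes tested 11 were higher and none lower (42.3% called, against 3.36% of all genes), with a median log2 fold change of 0.54. The summed level was 3536 to 4478 CPM (median 4076) with AAV-miR-34b/c and 2721 to 3210 CPM (median 2888) with AAV-GFP, without overlap, and 2808 to 3558 CPM in vehicle. *Sqle*, the squalene epoxidase, was at 88.2 to 127 CPM (median 106) against 27.3 to 51.7 CPM (median 37.3) (log2 fold change 1.35 ± 0.16 (SE), adjusted p = 0.000103). *Hmgcs1*, which makes HMG-CoA for the pathway, was at 356 to 535 CPM (median 488) against 279.6 to 349.5 CPM (median 300.0) (log2 fold change 0.65 ± 0.12 (SE), adjusted p = 0.00485). Both genes differed without overlap between the AAV groups. In vehicle *Sqle* was at 55.9 to 122 CPM (median 86.3), overlapping AAV-miR-34b/c, and *Hmgcs1* at 155 to 305 CPM (median 188), below it. In between these steps, *Pmvk* (0.75, adjusted p = 0.0214) and *Mvd* (1.21, adjusted p = 0.0106) act in turn from phosphomevalonate to isopentenyl diphosphate, *Fdps* (0.94, adjusted p = 0.005) makes farnesyl diphosphate and *Fdft1* (0.75, adjusted p = 0.0125) makes squalene.

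Beyond squalene, lanosterol synthase, *Lss* (0.92, adjusted p = 0.0206), and the reductase *Dhcr7* (0.62, adjusted p = 0.0344) were higher. *Msmo1* (0.73, adjusted p = 0.0523) and *Cyp51* (0.67, adjusted p = 0.0645) did not pass the test. The call of *Dhcr7* was lost in 7 of the 14 fits without a library, with adjusted p up to 0.0792 (without AAV-GFP 1), and those of *Lss* and *Pmvk* without AAV-GFP 1 (0.0539 and 0.0549). Without that library 6 members were higher. With close pairs summed 2 members were higher, *Sqle* and *Lss*, and with normalization by library size only 5, with a median of 0.34. In the high and low mitochondrial class 10 and 3 were higher, with medians of 0.51 and 0.56. *Mvd* had a log2 fold change of 1.64 within the high and 0.30 within the low class.

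Fat synthesis and lipoproteins showed few differences. Of 35 lipogenesis genes the fatty acid elongase *Elovl6* was higher (0.78, adjusted p = 0.0106) and lipoprotein lipase, *Lpl*, lower (-0.97, adjusted p = 0.0301, lost in 4 of the 14 fits without a library with adjusted p up to 0.0698 without AAV-miR-34b/c 4). That is 5.71% of the list called, against 3.36% of all genes. Of 42 phospholipid and lipoprotein genes (4.76% called), apolipoprotein N, *Apon*, was higher without overlap (0.77, adjusted p = 0.00477) and *Etnppl* was lower. *Soat2*, which esterifies cholesterol, was lower (-0.99, adjusted p = 0.0108). *Etnppl* and *Soat2* passed with close pairs summed, whereas *Elovl6*, *Lpl* and *Apon* did not. The number of phospholipid and lipoprotein genes higher was 2 without AAV-miR-34b/c 6 or 7 and the number lower 2 without AAV-GFP 4. The number of lipogenesis genes higher was 2 without AAV-miR-34b/c 1 and the number lower was 2 without AAV-GFP 4, 6 or 7 or AAV-miR-34b/c 7, 3 without AAV-miR-34b/c 5, and 5, with none higher, with normalization by library size only.

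**Figure D4:**
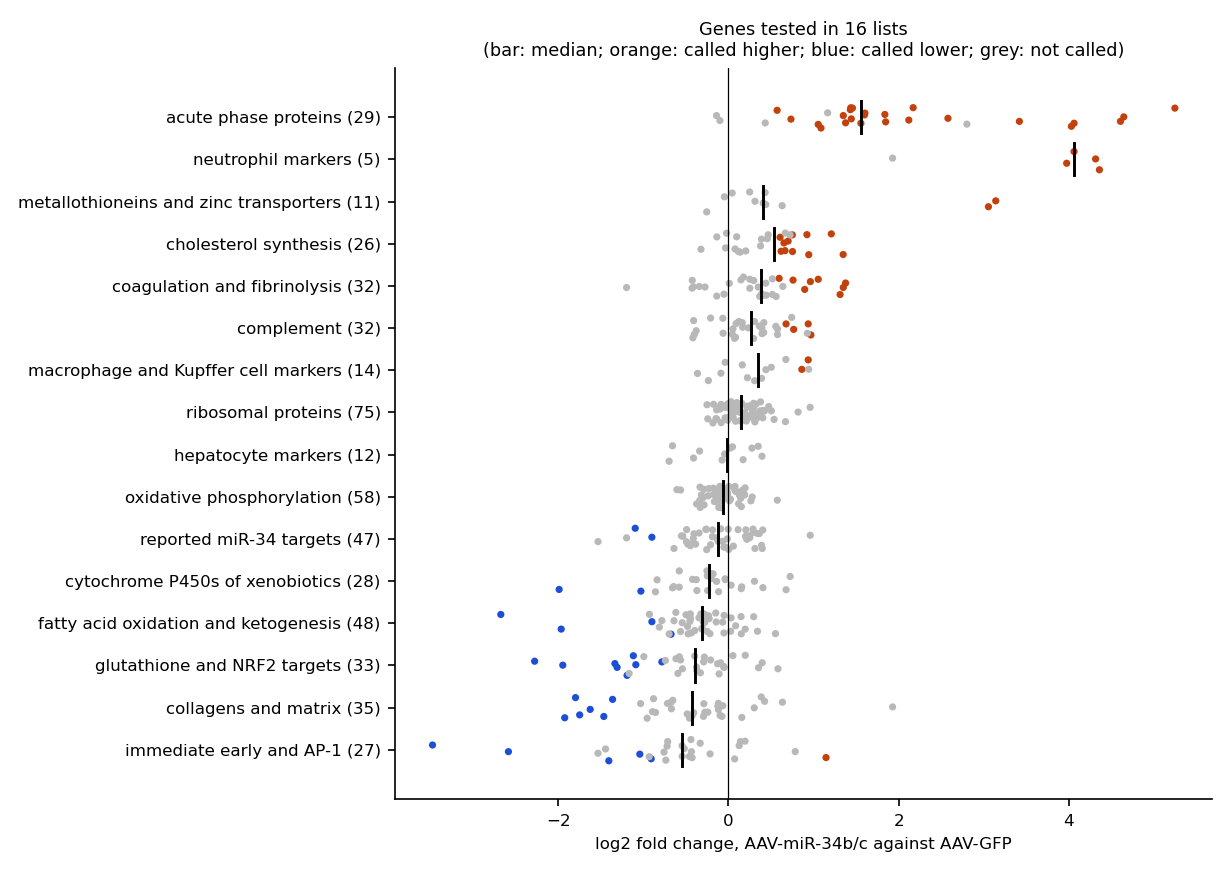
Log2 fold changes of AAV-miR-34b/c against AAV-GFP (x axis) of the genes tested in 16 lists, with a point for each gene, coloured by its call, the number tested in brackets and a bar at the median. The median is 1.56 for acute phase proteins, 0.54 for cholesterol synthesis, -0.40 for glutathione and NRF2 targets and -0.54 for immediate early genes, while those of hepatocyte markers and oxidative phosphorylation are within 0.1 of 0.

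Of 33 glutathione enzymes and other NRF2 targets tested 8 were lower and none higher (24.2% called, against 3.36% of all genes). The median was -0.40, and 5 of the 8 did not overlap between the groups. The summed level was 4199 to 6273 CPM (median 4913) with AAV-miR-34b/c, 6290 to 9216 CPM (median 7146) with AAV-GFP and 4837 to 6290 CPM in vehicle. *Gclc*, the catalytic subunit of the enzyme that limits glutathione synthesis, was at 145 to 213 CPM (median 171) with AAV-miR-34b/c, 294 to 500.3 CPM (median 444) with AAV-GFP and 135 to 159.6 CPM (median 141) in vehicle (log2 fold change -1.31 ± 0.14 (SE), adjusted p = 2.97e-05). *Ephx1*, the microsomal epoxide hydrolase, was at 130.4 to 204 CPM (median 167), 293 to 443 CPM (median 383) and 129.9 to 178 CPM (median 148) (log2 fold change -1.19 ± 0.14 (SE), adjusted p = 7.66e-05). For both genes the AAV-miR-34b/c libraries were below all AAV-GFP libraries and overlapped those of vehicle.

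Besides *Gsta2*, the glutathione S-transferases *Gsta4* (-1.09, adjusted p = 0.00158), *Gstm3* (-1.12, adjusted p = 0.0108) and *Gstm4* (-0.78, adjusted p = 0.00493) were lower. Thus 4 of the 19 glutathione S-transferases tested were lower (21.1%, against 1.42% of all genes) and none was higher. *Gstm1* did not pass the test (-0.99, adjusted p = 0.0606). The carbonyl reductase *Cbr3* (-1.95, adjusted p = 0.0106) and the aldehyde oxidase *Aox1* (-1.33, adjusted p = 0.012) completed the 8. The glutathione S-transferase genes are similar in sequence, so their shares of the reads are uncertain. All 8 calls held in each fit without a library, and 5 members were lower with close pairs summed, all but *Gstm3*, *Gstm4* and *Aox1*. With normalization by library size only 16 were lower, with a median of -0.60, and within the high and low mitochondrial class 11 and 6.

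Cytochrome P450s and conjugation enzymes of drug metabolism were also among the genes called. Of 28 cytochrome P450s of xenobiotics tested 2 were lower and none higher (7.14% called, against 3.36% of all genes), with a median of -0.22. *Cyp2a5*, which oxidises coumarin and nicotine, was at 20.8 to 83.6 CPM (median 35.9) against 52.9 to 361 CPM (median 139) (log2 fold change -1.99 ± 0.35 (SE), adjusted p = 0.00305), with 5 of 7 AAV-miR-34b/c libraries below all AAV-GFP libraries. *Cyp2c67* was lower (-1.03, adjusted p = 0.02), lost without AAV-miR-34b/c 4 (adjusted p = 0.0509). The number of P450s lower was 1 without that library and 4 without AAV-GFP 4 or 6. Of 22 conjugation enzymes 4 were lower and 2 higher (27.3% called), with a median of -0.46. The glucuronosyltransferases *Ugt2b1* (-1.10, adjusted p = 0.0106) and *Ugt2b38* (-2.06, adjusted p = 0.0229) and the methyltransferase *Inmt* (-0.81, adjusted p = 0.00317) were lower. The sulfotransferase *Sult1a1* (1.14, adjusted p = 0.0184) and the nicotinamide methyltransferase *Nnmt* (1.28, adjusted p = 0.0276) were higher. Without AAV-GFP 1 neither passed (adjusted p = 0.051 and 0.0683), and *Nnmt* was lost in 5 of the 14 fits without a library. *Ugt2b38* was lost in 2 of these fits, with adjusted p up to 0.0536 (without AAV-GFP 7). Ugt2b genes are similar in sequence and may share reads. The number of conjugation enzymes lower was 2 without AAV-GFP 6 or 7, 7 without AAV-miR-34b/c 2 and 8 without AAV-GFP 4, and 10 with normalization by library size only. None of the P450 and conjugation calls was made with close pairs summed. The log2 fold change of *Sult1a1* was 0.62 within the high and 1.97 within the low mitochondrial class, and that of *Ugt2b38* -0.92 and -4.89.

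Outside these lists, *Hsd17b6*, which acts on androgens and retinol, was at 14.4 to 79.3 CPM (median 33.5) against 95.2 to 200.5 CPM (median 117), without overlap (log2 fold change -1.84 ± 0.31 (SE), adjusted p = 0.00204). The flavin monooxygenase *Fmo1* (-0.71, adjusted p = 0.016), the fatty acid hydroxylase *Cyp4v3* (-0.69, adjusted p = 0.012), the aldo-keto reductase *Akr1c19* (-0.88, adjusted p = 0.0125), the retinol saturase *Retsat* (-0.74, adjusted p = 0.0126) and the paraoxonase *Pon1* (-0.72, adjusted p = 0.0129) were lower. Of these only *Hsd17b6* passed with close pairs summed.

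Fatty acid oxidation was lower in a few members. Of 48 tested 4 were lower and none higher (8.33% called, against 3.36% of all genes), and 39 had a negative log2 fold change, with a median of -0.31. *Cyp4a14*, a microsomal omega-hydroxylase of fatty acids (chr4:115486200-115496142, minus strand), was at 7.63 to 78.3 CPM (median 11.2) with AAV-miR-34b/c, 80.5 to 289 CPM (median 141) with AAV-GFP and 6.15 to 126 CPM (median 18.3) in vehicle (log2 fold change -2.67 ± 0.50 (SE), adjusted p = 0.00477). *Acot1*, a cytosolic acyl-CoA thioesterase, was at 1.98 to 7.89 CPM (median 3.59), 9.94 to 31.3 CPM (median 14.4) and 4.18 to 27.3 CPM (median 10.3) (log2 fold change -1.96 ± 0.36 (SE), adjusted p = 0.00382). Neither gene overlapped between the AAV groups. *Acsl1*, the acyl-CoA synthetase that activates fatty acids, was lower as well (-0.90, adjusted p = 0.0145). With normalization by library size only, 17 of the 48 genes were lower, and with close pairs summed 1 was, *Cyp4a14*. Within the high and low mitochondrial class 7 and 8 were lower. Without AAV-GFP 4 the count was 8.

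In glucose and glycogen metabolism 3 of 35 genes tested were lower and none higher (8.57% called, against 3.36% of all genes), all 3 without overlap. *G6pc*, which releases glucose from glucose 6-phosphate, was at 350.0 to 465 CPM (median 435) against 678 to 1375 CPM (median 839.6) (log2 fold change -1.18 ± 0.16 (SE), adjusted p = 0.000279). *Ppp1r3g*, a glycogen-targeting subunit of protein phosphatase 1, was at 0 to 7.86 CPM (median 2.54) against 7.98 to 44.7 CPM (median 20.3) (log2 fold change -3.18 ± 0.50 (SE), adjusted p = 0.0013). The insulin receptor substrate *Irs1* was lower too (-1.02, adjusted p = 0.00669). *Txnip*, which is induced by glucose and limits its uptake, was at 11.9 to 62.1 CPM (median 29.3) against 37.5 to 120.1 CPM (median 98.3) (log2 fold change -1.54 ± 0.35 (SE), adjusted p = 0.0181), with 5 of 7 AAV-miR-34b/c libraries below all AAV-GFP libraries. *G6pc* and *Ppp1r3g* passed with close pairs summed and *Irs1* and *Txnip* did not. Without AAV-GFP 4 the number of genes lower was 5.

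Amino acid metabolism was little changed, with 1 of 68 genes tested higher and 3 lower (5.88% called, against 3.36% of all genes). *Mat1a*, which makes S-adenosylmethionine in hepatocytes, was at 3332 to 4988 CPM (median 4212) against 1570.4 to 2815 CPM (median 2246), without overlap (log2 fold change 0.87 ± 0.16 (SE), adjusted p = 0.00477). *Bckdha*, a subunit of the branched-chain keto acid dehydrogenase, was lower without overlap (-0.60, adjusted p = 0.0125). *Pccb*, which carboxylates propionyl-CoA (-0.58, adjusted p = 0.0448), and *Csad*, of taurine synthesis (-0.70, adjusted p = 0.0337), were lower. The latter calls were lost in 10 and 9 of the 14 fits without a library, with adjusted p up to 0.11 (without AAV-GFP 5) and 0.0765 (without AAV-miR-34b/c 3). Among pericentral WNT targets, 1 of 18 tested (5.56%) was higher. This was glutamine synthetase, *Glul* (0.78, adjusted p = 0.039), lost in 10 of the 14 fits without a library with adjusted p up to 0.0868 without AAV-GFP 5. The log2 fold change of *Glul* was 1.003 within the high and 0.24 within the low mitochondrial class. None of the calls of this group was made with close pairs summed, and 13 amino acid genes were lower with normalization by library size only. Without AAV-GFP 1, 2 or 6 or AAV-miR-34b/c 3, 4 or 6 the number of amino acid genes lower was 1. Over all fits without a library it was 1 to 4, and the number higher was 1 or 2.

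Bile acid genes and transporters moved in both directions, 3 of 31 tested higher and 3 lower (19.4% called, against 3.36% of all genes). The bile acid transporter *Slc10a2* (0.86, adjusted p = 0.0181), the organic anion transporter *Slc22a7* (1.09, adjusted p = 0.00928) and the canalicular flippase *Atp8b1* (0.73, adjusted p = 0.0186, lost without AAV-miR-34b/c 4 with adjusted p = 0.0509) were higher. *Abcb4*, which moves phosphatidylcholine into bile, was at 291 to 398 CPM (median 345) against 446 to 682 CPM (median 546), without overlap (log2 fold change -0.65 ± 0.14 (SE), adjusted p = 0.00989). The uptake transporter *Slco1a4* (-1.32, adjusted p = 0.0186) and *Hsd17b4*, which shortens the side chain of bile acids in peroxisomes (-0.61, adjusted p = 0.0448), were lower, the latter lost in 11 of the 14 fits without a library with adjusted p up to 0.104 without AAV-GFP 1. Over all 183 solute carriers tested, 7 were higher (3.83%) and 3 lower (1.64%), against 1.95% and 1.42% of all genes. The share lower was near that of all genes, and the difference in the share higher was not tested. *Slc41a2*, a magnesium transporter, was at 145 to 281 CPM (median 194) against 23.6 to 129 CPM (median 60.2), without overlap (log2 fold change 1.68 ± 0.27 (SE), adjusted p = 0.00172). The citrate transporter *Slc13a5* (1.94, adjusted p = 0.00782) and the dicarboxylate transporter *Slc13a3* (1.58, adjusted p = 0.012) were higher. Of the genes in this group *Slc41a2* and *Slc13a5* passed with close pairs summed, and none of the 6 bile acid calls was made. Normalized by library size only, 2 bile acid genes were higher and 5 lower. *Slco1a4* had a log2 fold change of -1.80 within the high and -0.29 within the low mitochondrial class.

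Genes under control of growth hormone or sex moved in both directions, 3 of 46 tested higher and 4 lower (15.2% called, against 3.36% of all genes). *Moxd1* was the leading higher member. *Cyp17a1*, the steroid 17-alpha-hydroxylase, was at 23.9 to 161 CPM (median 43.1) with AAV-miR-34b/c, 1.33 to 23.5 CPM (median 6.70) with AAV-GFP and 5.997 to 44.8 CPM (median 37.1) in vehicle (log2 fold change 3.04 ± 0.56 (SE), adjusted p = 0.00415). It differed between the AAV groups without overlap. *Mup20*, the male pheromone darcin of the major urinary proteins, was at 1252 to 2416 CPM (median 1790.1) against 2719 to 10893 CPM (median 3560.0), without overlap (log2 fold change -1.49 ± 0.30 (SE), adjusted p = 0.00832). Reads of the major urinary protein genes can be shared between copies. *Keg1* (-1.10, adjusted p = 0.0108) and the insulin-like growth factor binding protein *Igfbp2* (-1.19, adjusted p = 0.0126) were also lower, and the latter was higher in vehicle than in either group, 379.8 to 730.0 CPM (median 517). On the list of circadian clock and output genes, 1 of 20 tested was called (5%, against 3.36% of all genes). This was the tetraspanin *Tspan4*, which was higher (0.88, adjusted p = 0.0106). *Moxd1* and *Cyp17a1* passed with close pairs summed, whereas *Mup20*, *Keg1*, *Igfbp2* and *Tspan4* did not. The log2 fold change of *Igfbp2* was -1.83 within the high and -0.15 within the low mitochondrial class (adjusted p = 0.859). Within the high class 9 of 46 genes on this list were higher and 2 lower, and within the low class 2 of 48 were higher and 8 lower.

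Cells switch on immediate early genes within minutes of a stimulus. Of 27 genes tested on the list of immediate early and AP-1 genes, 5 were lower and 1 higher, with a median of -0.54. That is 22.2% of the list called, against 3.36% of all genes. *Nr4a1*, a nuclear receptor without a known ligand, was at 0 to 1.74 CPM (median 1.07) with AAV-miR-34b/c, 4.79 to 18.3 CPM (median 10.9) with AAV-GFP and 0 to 1.05 CPM (median 0) in vehicle (log2 fold change -3.48 ± 0.44 (SE), adjusted p = 0.000145). *Maff*, a small Maf transcription factor that dimerises with NRF2, was at 0.801 to 3.24 CPM (median 1.74), 7.29 to 16.5 CPM (median 11.2) and 0.895 to 6.93 CPM (median 4.20) (log2 fold change -2.58 ± 0.33 (SE), adjusted p = 0.000145). Neither gene overlapped between the AAV groups. The MAP kinase phosphatases *Dusp6* (-1.40, adjusted p = 0.00187) and *Dusp1* (-0.91, adjusted p = 0.0212, lost in 3 of the 14 fits without a library with adjusted p up to 0.0522 without AAV-GFP 2) and *Jun*, a subunit of AP-1 (-1.04, adjusted p = 0.008), were lower. *Fos* (-1.53, adjusted p = 0.06) and *Egr1* (-1.44, adjusted p = 0.087) did not pass the test. The 1 higher member of the list was *Fkbp5*, a gene induced by glucocorticoids rather than an immediate early gene (1.15, adjusted p = 0.0121). Of 38 genes of endoplasmic reticulum folding and stress, 1 was lower (2.63%), the phosphatase subunit *Ppp1r15a* (-1.02, adjusted p = 0.0134, without overlap). The summed level of the immediate early list was 973 to 1480 CPM (median 1041) with AAV-miR-34b/c, 1135 to 1987 CPM (median 1732) with AAV-GFP and 660.1 to 1096 CPM in vehicle. The median of the list was -0.78 within the high and -0.20 within the low mitochondrial class, with 10 and 5 members lower. Without AAV-GFP 7 the number lower was 8, with normalization by library size only 10, and with close pairs summed 2, *Nr4a1* and *Maff*.

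Of 35 matrix genes tested 6 were lower and none higher (17.1% called, against 3.36% of all genes), with a median of -0.42. The 6 included collagens and proteins that fold or bind them. *Col1a1* was at 5.52 to 8.76 CPM (median 6.63) against 14.05 to 55.5 CPM (median 23.7) (log2 fold change -1.92 ± 0.29 (SE), adjusted p = 0.000898), and AAV-GFP 4 was the highest library. *Col3a1* was at 9.31 to 36.8 CPM (median 17.9) against 40.8 to 76.1 CPM (median 56.5) (log2 fold change -1.46 ± 0.26 (SE), adjusted p = 0.00305), and like *Col1a1* did not overlap. *Col6a3* (-1.75, adjusted p = 0.00172), the collagen chaperone *Serpinh1* (-1.36, adjusted p = 0.00305) and the collagen-binding dermatopontin, *Dpt* (-1.62, adjusted p = 0.00382), were also lower. The heparan sulfatase *Sulf2* was lower outside the list (-1.29, adjusted p = 0.0154). Within the high mitochondrial class 14 of 39 matrix genes tested were lower and none higher, with a median of -0.77, and within the low class 1 of 38 was lower and 2 were higher, with a median of -0.14. The log2 fold change in these classes was -2.31 and -1.17 for *Col1a1*, -1.98 and -0.61 for *Col3a1*, -2.05 and -1.22 for *Col6a3*, -1.25 and -1.35 for *Serpinh1*, -1.79 and -1.17 for *Dpt*, and -1.85 and -0.24 for *Sulf2*. The low class holds 3 AAV-GFP and 2 AAV-miR-34b/c libraries, and the difference between the classes was not tested. There were 12 lower with normalization by library size only. The calls of *Col1a1*, *Col3a1*, *Col6a3*, *Serpinh1* and *Dpt* held with close pairs summed, and that of *Sulf2* did not. Markers of activated HSC had a summed level of 101 to 185 CPM with AAV-miR-34b/c and 198 to 360.2 CPM with AAV-GFP, without overlap, and 98.0 to 199 CPM in vehicle. Of the 12 markers tested 4 were lower and none higher (33.3% called, against 3.36% of all genes), with a median of -0.80. Within the high mitochondrial class 8 of 15 were lower, with a median of -1.25, and within the low class 1 of 13 was lower and 1 higher, with a median of -0.30. There were 7 lower with normalization by library size only. None of the 23 was at 0 throughout a group, and 4 had at most 3 counts in every AAV-miR-34b/c library. The summed level of the whole matrix list overlapped between the AAV groups, 1677 to 2064 CPM with AAV-miR-34b/c and 1541 to 2274 CPM with AAV-GFP, and was 1976 to 2599 CPM in vehicle. The part of the activated HSC in the matrix result was not tested. Of 12 tested markers of quiescent HSC none passed the test.

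The actin cytoskeleton had 2 of 39 tested genes higher and 2 lower (10.3% called, against 3.36% of all genes). *Arpc1b*, a subunit of the Arp2/3 complex, was higher without overlap (0.90, adjusted p = 0.000698), and cofilin, *Cfl1*, was higher (0.52, adjusted p = 0.0412) but lost in 12 of the 14 fits without a library with adjusted p up to 0.0931 (without AAV-GFP 5). Vinculin, *Vcl*, was at 3.57 to 9.31 CPM (median 8.02) against 13.3 to 20.9 CPM (median 16.6), without overlap (log2 fold change -1.09 ± 0.21 (SE), adjusted p = 0.00475), and *Gsn* was lower. All of these but *Cfl1* passed with close pairs summed.

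For other cell types, 14.3% of the tested macrophage and Kupffer cell markers and 30% of those of scar-associated macrophages were called. The share was 5.26% for sinusoidal endothelial cells and 20% for cholangiocytes, against 3.36% of all genes. Of 14 tested macrophage and Kupffer cell markers *C1qb* and *Cd5l*, a scavenger protein of Kupffer cells (0.86, adjusted p = 0.00553), were higher without overlap, and the summed level was 761 to 990.1 CPM with AAV-miR-34b/c and 537 to 845 CPM with AAV-GFP. Of 10 tested markers of scar-associated macrophages *Fabp5* was higher, and *Lpl* and *Gpnmb*, a lysosomal glycoprotein, were lower. *Gpnmb* was at 3.39 to 13.6 CPM (median 10.7) against 12.5 to 39.2 CPM (median 23.3) and at most 0.7 CPM in vehicle (log2 fold change -1.37 ± 0.30 (SE), adjusted p = 0.0143), and 6 of 7 AAV-miR-34b/c libraries were below all AAV-GFP libraries. *Lyve1*, a hyaluronan receptor of endothelial cells, was at 40.8 to 52.8 CPM (median 47.2) against 15.4 to 29.1 CPM (median 23.9), without overlap (log2 fold change 1.05 ± 0.17 (SE), adjusted p = 0.0013), and was the 1 called of 19 tested sinusoidal endothelial markers. Keratin 18, *Krt18*, which hepatocytes also express, was the 1 called of 5 tested cholangiocyte markers (0.90, adjusted p = 0.0128). None of the 5 tested T, B and plasma cell markers or the 5 tested red blood cell markers passed. *Fabp2*, the intestinal fatty acid binding protein and the only gene tested on the list of pancreas and gut genes, was lower (-1.34, adjusted p = 0.0165). *Fabp5* and *Lyve1* passed with close pairs summed and the others called here did not. Without AAV-miR-34b/c 7 the number of macrophage markers higher was 4, and without AAV-GFP 1 or AAV-miR-34b/c 3, 4 or 6 1 scar-associated marker was lower.

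Lysosomal genes were higher in 3 of 43 tested and lower in 1 (9.3% called, against 3.36% of all genes). Progranulin, *Grn*, was at 483 to 1148 CPM (median 745) against 189.6 to 573 CPM (median 309) (log2 fold change 1.07 ± 0.24 (SE), adjusted p = 0.0159), with 5 of 7 AAV-miR-34b/c libraries above all AAV-GFP libraries. The cathepsins *Ctsc* (1.21, adjusted p = 0.0461) and *Ctsz* (0.48, adjusted p = 0.0184) were higher, lost in 10 and 2 of the 14 fits without a library with adjusted p up to 0.0885 (without AAV-GFP 2) and 0.0525 (without AAV-miR-34b/c 3). Of 22 genes of MHC presentation the secreted class I molecule *H2-Q10* was higher without overlap (0.62, adjusted p = 0.0237), lost in 5 of the 14 fits without a library with adjusted p up to 0.0633 without AAV-GFP 1. That is 4.55% of the list called, against 3.36% of all genes, and in these fits 0 to 2 MHC genes were higher. *Spi1*, the transcription factor PU.1 of myeloid cells, was higher without overlap (0.87, adjusted p = 0.00961). None of these calls was made with close pairs summed. Without AAV-GFP 1 or AAV-miR-34b/c 3 only 1 lysosomal gene was higher, and with normalization by library size only 1 was higher and 4 lower.

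Few genes reported as miR-34 targets in other settings differed. Of 47 tested 2 were lower, *Vcl* and *Acsl1*, and none was higher, which is 4.26% of the list lower against 1.42% of all genes. The median log2 fold change was -0.12, and 30 of the 47 were negative. The p53 pathway, to which miR-34 belongs, had 3 of 21 tested targets lower and none higher (14.3% called, against 3.36% of all genes). The stress hormone *Gdf15* was at 49.2 to 158 CPM (median 93.7) with AAV-miR-34b/c, 77.9 to 506 CPM (median 293) with AAV-GFP and 11.6 to 102 CPM (median 13.6) in vehicle (log2 fold change -1.51 ± 0.35 (SE), adjusted p = 0.0195). It overlapped between the AAV groups, with 3 of 7 AAV-miR-34b/c libraries below all AAV-GFP libraries. *Ephx1* was the leading member, and the kinase *Plk3* was lower (-0.80, adjusted p = 0.0328), lost in 9 of the 14 fits without a library with adjusted p up to 0.0771 without AAV-GFP 2. Normalized by library size only, 4 of the reported targets were lower. *Vcl* and *Ephx1* passed with close pairs summed, whereas *Acsl1*, *Gdf15* and *Plk3* did not. The log2 fold change of *Plk3* was -1.18 within the high and -0.09 within the low mitochondrial class.

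Housekeeping groups and cell division gave no calls. None of 58 tested genes of oxidative phosphorylation passed the test, with a median of -0.07, and none of 75 ribosomal protein genes did, with a median of 0.15 that was -0.05 with normalization by library size only. Of 32 tested genes of the cell cycle and replication none passed either, with a median of -0.18, and 0.14 within the low mitochondrial class. Among 41 hepatocyte transcription factors and receptors *Maff* alone passed, while 2 were lower without AAV-GFP 7 or AAV-miR-34b/c 2, 3 without AAV-miR-34b/c 5 and 4 without AAV-miR-34b/c 7. Normalized by library size only, 7 genes of oxidative phosphorylation were lower.

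**Figure D5:**
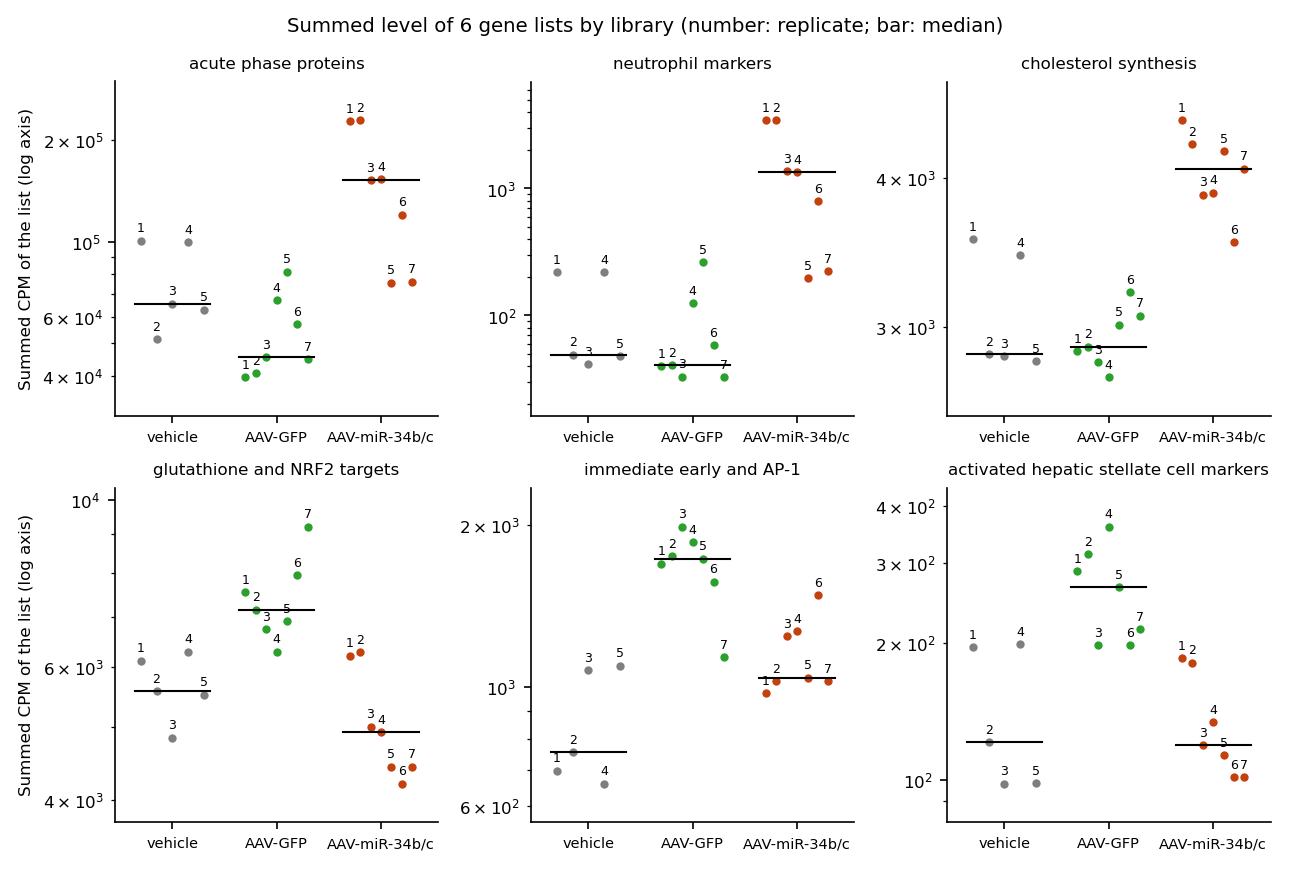
Summed CPM of 6 gene lists by library on a log axis, with the replicate number at each point and a bar at the group median in each of the 3 groups. The AAV groups do not overlap for cholesterol synthesis, glutathione and NRF2 targets and activated hepatic stellate cell markers, and they overlap for the other 3 lists.

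Of the 311 genes 132 were on a list and 179 on none. Among the latter, *Fgl1*, a fibrinogen-like protein secreted by hepatocytes, was at 1393 to 5539.7 CPM (median 2354) against 292 to 1531 CPM (median 642) (log2 fold change 2.01 ± 0.40 (SE), adjusted p = 0.00714), with 5 of 7 AAV-miR-34b/c libraries above all AAV-GFP libraries. Angiogenin, *Ang*, a secreted ribonuclease, was higher without overlap (0.98, adjusted p = 0.00305). *Nrg4*, a secreted ligand of ErbB4, was higher in 6 of 7 libraries than in any AAV-GFP library (1.18, adjusted p = 0.0159). The neighbouring genes of membrane proteins *Tmem176a* (0.83, adjusted p = 0.0125) and *Tmem176b* (1.05, adjusted p = 0.00105) were both higher, the latter without overlap. Of these only *Tmem176b* passed with close pairs summed.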

How the data were processed

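RNA of whole liver was sequenced as 3′-end libraries of polyadenylated RNA and deposited by the authors as a table of raw counts per gene with 19 columns of libraries. The submitters' processing notes name STAR and mm10. The annotation release and the strand setting are not given in the sources used here, so overlapping and antisense genes cannot be told apart. Gene symbols and positions were taken from GENCODE M21 on GRCm38, which named 31011 of the 31053 identifiers.

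Libraries were grouped by their labels. Counts of the 14 AAV libraries were filtered with filterByExpr (minimum count 10, total 15), normalized by TMM and compared with edgeR 4.0.16 (quasi-likelihood test, without covariates) in R 4.3.3, with Benjamini-Hochberg adjusted p under 0.05 as the threshold over all genes tested. A value in brackets after a gene is its log2 fold change. The total counts of 2463842 to 5208405 per library set the precision. PCR duplicates were not told apart, so a floor of 3 counts covers counting error only. Samples numbered alike did not deviate together, so no block was used in the main comparison. Scripts were tested on simulated data.

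Genes were named by a rule: the 12 with the smallest p in each direction and, in each list, up to 3 called members with the smallest p in each direction (105 genes). A further 51 genes, given because they complete a pathway or are defining members, were picked with their values already seen. A few list members are counted but not reported here by name. The members and gene lists were chosen with earlier results of these data known. Alternatives were other normalizations, filters and tools (DESeq2 1.42.0, limma 3.58.1), a fit of all 3 groups, the replicate block, each library left out and close pairs summed. The comparisons by mitochondrial share and without the libraries with high *Dbp* were added after seeing the data.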

Additional observations from a re-analysis of the deposited data

Results flagged for a closer look

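In 406 sets of 7 libraries (a named gene or the summed level of a list in a group) the gap of the highest or lowest library to the next was examined with Dixon's criterion, and 21 exceeded it, where chance alone gives about 1 in 20, or 20.3. Values are log2(CPM + 1) unless stated. AAV-GFP 4 stood below the other AAV-GFP libraries in *Ces2e* (7.31, next 7.58), *Glul* (7.48, next 8.33), *Retsat* (7.74, next 8.42), *Ugt2b1* (8.88, next 9.68) and the summed pericentral WNT targets (11.63, next 12.24). It stood above them in *Lpl* (7.48, next 6.46) and in summed cell cycle genes (10.26, next 9.6). AAV-GFP 5 was low in *Csad* (8.99, next 9.62) and had the highest total count of its group (4383805, next 3239809). AAV-GFP 6 was high in *Gsta4* (6.37, next 6.11) and in *Moxd1* (0.41, the others at 0), which is the library with a single count, and low in *Sox4* (3.14, next 3.85). AAV-GFP 7 was low in summed immediate early genes (10.15, next 10.62) and AAV-GFP 3 in summed quiescent HSC markers (8.98, next 9.23).

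Among the AAV-miR-34b/c libraries, number 1 was high in *Id1* (4.24, next 2.96) and *Il1rap* (4.75, next 4.12). Number 2 was low in *Cfl1* (6.20, next 6.61) and high in *Sulf2* (3.11, next 2.54). Number 5 was low in *Vcl* (2.19, next 3.05). Number 6 was low in *Hmgcs1* (8.48, next 8.83) and high in summed T, B and plasma cell markers (7.83, next 6.59).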

How the results depend on the processing

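Counts of genes higher and lower, 180 and 131 of 311, were 119 and 505 of 624 with normalization by library size only, which shifted the median of all genes by -0.20, 293 and 242 of 535 with DESeq2, and 420 and 393 of 813 with limma-voom. With the replicate block they were 83 and 59 of 142 and with close pairs summed 55 and 32 of 87. The replicate numbers only name the samples: correlations of deviations between libraries with the same number were -0.31 to 0.22, and 50 calls of named genes were lost with the block. In comparisons added after seeing the data they were 372 and 336 of 708 with the mitochondrial class as covariate and 321 and 293 of 614 within the high class. Leaving out each library gave 209 to 344 genes, 123 to 197 higher and 86 to 153 lower, of which 203 to 282 were among the 311; the lowest counts were without AAV-GFP 1 (209). The other settings stayed within 1.5 times of each count, and no value of a named gene reversed. Of the 148 named genes that passed the test, 122 did so whichever library was left out and 37 in every alternative that tested them (30 in all 27 alternatives, and 7 in 26, since they were not tested with at least 10 counts in every library), while 89 were lost with close pairs summed, which leaves 4 and 6 samples. Named calls were also lost within the low (60) and high (20) mitochondrial class and without the libraries with high *Dbp* (20). The cause of these losses was not tested. At these depths low genes such as *Nr4a1* and *Maff*, at under 4 CPM with AAV-miR-34b/c, rest on few counts.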
